A study of Mus musculus with 12 samples.

Results

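The genes described here are 225 of the 22180 mouse genes measured with a probe of a single symbol (1.01%) whose log2 level in 1 array, epididymal white fat of Mgl2-DTR replicate 2, exceeded the level in each of the other 3 epididymal arrays by more than 2, which is more than 4-fold. They were selected on the 4 epididymal values themselves, so the differences within epididymal fat are a description and carry no test. Their leading genes are those of the epididymal duct, the coiled tube that lies against the epididymal fat pad and in which sperm mature. The gap of a gene, as used below, is its log2 level in that array minus the highest of the other 3 epididymal levels.

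The study took liver and 2 white fat depots, inguinal and epididymal, from male Mgl2-DTR mice and age-matched male C57BL/6N wild-type mice, with 2 arrays per genotype and tissue, 12 in all. In Mgl2-DTR mice Mgl2, the gene of the lectin CD301b, drives a receptor for diphtheria toxin, so that toxin kills the mononuclear phagocytes that express it, and wild-type mice keep them. Mice of both genotypes received 500 ng of diphtheria toxin in the abdominal cavity, repeated every 3 days, until the organs were collected on day 10. The study compared what loss of these cells does to fat and liver.

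The epithelium of the epididymal duct secretes proteins into the lumen that coat sperm, inhibit proteases, bind small lipids, detoxify peroxides and act against microbes. Many of these proteins belong to families that have multiplied in mammals and lie in clusters on the chromosomes, among them beta-defensins, lipocalins and protease inhibitors with a WAP, Kunitz or Kazal fold. Most of them depend on androgens, and many are made in a single stretch of the duct. White fat and liver are not known as main sources of most of them.

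In epididymal fat, Mgl2 itself stood at 4.19 and 4.25 in Mgl2-DTR replicates 2 and 1, against 7.46 and 7.22 in the wild-type arrays, so both Mgl2-DTR arrays matched their label. Adipoq, the adiponectin gene of fat cells, stood at 10.65 in Mgl2-DTR replicate 2, against 11.11 in Mgl2-DTR replicate 1 and 10.42 and 11.03 in the wild-type arrays. Across the 22180 genes Pearson's r of Mgl2-DTR replicate 2 with the other 3 epididymal arrays was 0.951 to 0.967. The other 3 arrays correlated at 0.978 to 0.991 with each other. Once the 225 genes were left out, r of Mgl2-DTR replicate 2 was 0.973 to 0.988. The rule chose these genes for their difference in that array, so this rise was built in. Applied to the other epididymal arrays, the same rule found 0 genes in Mgl2-DTR replicate 1, 31 in wild-type replicate 1 and 18 in wild-type replicate 2, and no gene fell short of the other 3 arrays by more than 2 in any of the 4. Wild-type replicate 2 held another gland's genes, described below, and skeletal muscle genes averaged 9.28 and 6.53 in inguinal Mgl2-DTR replicates 1 and 2, against 6.62 and 9.65 in inguinal wild-type replicates 1 and 2. Leaving out the 2 arrays high in muscle genes would leave 1 inguinal array per genotype. The spread within inguinal fat could then not be measured, so no separate count is given without them. The ranges over alternatives at the end include that fit.

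The median level of the 225 genes was 8.29 in Mgl2-DTR replicate 2, against 4.26 in Mgl2-DTR replicate 1 and 4.22 and 4.34 in the wild-type epididymal arrays. Over all genes the medians of the 12 arrays were 5.69 to 5.91. In bulk tissue, fewer cells of a type and less RNA per cell cannot be told apart, and a level says nothing of how many duct cells a sample held. The gaps ran from 2.002 to 9.10 with a median of 3.35, and 126 genes had a gap over 3, 58 a gap over 5 and 22 a gap over 7.

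Gpx5 had the widest gap. It encodes the epididymal glutathione peroxidase, a secreted enzyme without selenocysteine that removes peroxides around sperm, and stood at 12.74 in Mgl2-DTR replicate 2, against 3.59 in Mgl2-DTR replicate 1 and 3.53 and 3.64 in the wild-type arrays. Rnase9, an epididymal member of the ribonuclease A family, stood at 12.20 in Mgl2-DTR replicate 2, against 3.08 in Mgl2-DTR replicate 1 and 3.19 and 3.13 in the wild-type arrays. Adam7, a membrane disintegrin that the duct passes to sperm, stood at 12.53 in Mgl2-DTR replicate 2, against 3.82 in Mgl2-DTR replicate 1 and 3.31 and 3.80 in the wild-type arrays. For each of these genes 1 array lay far above the other 3, which were close together whatever their genotype. The same held for Spink11, a Kazal-type protease inhibitor, at 11.88 in Mgl2-DTR replicate 2, against 2.83 in Mgl2-DTR replicate 1 and 3.10 and 3.25 in the wild-type arrays. Spint4, a Kunitz-type inhibitor, was the fifth gene with a gap over 8.

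**Figure D1:**
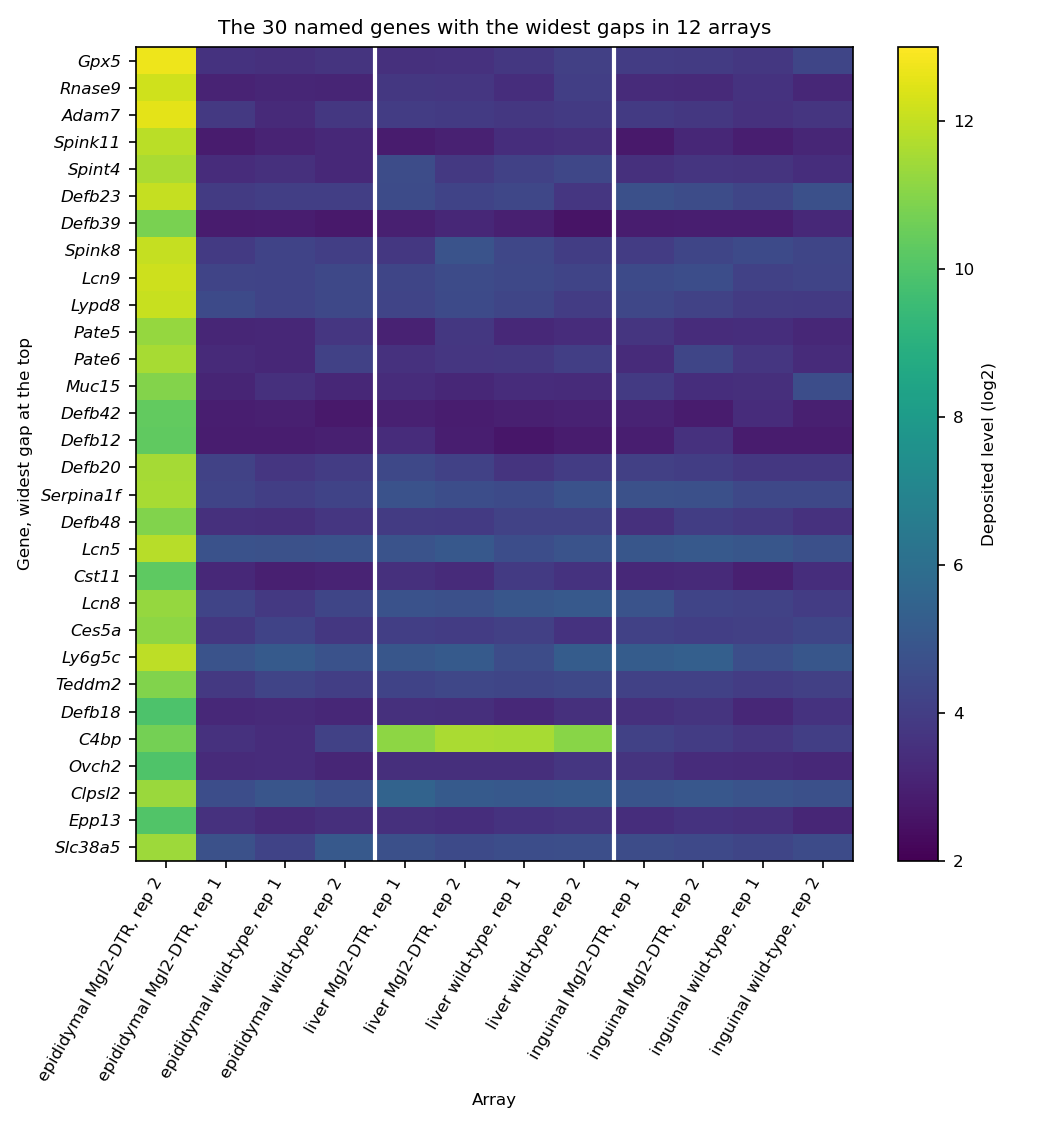
Deposited log2 level (colour) of the 30 named genes with the widest gaps (rows, widest at the top) in the 12 arrays (columns; white lines part epididymal fat, liver and inguinal fat). All 30 are bright in the column of epididymal Mgl2-DTR replicate 2, Gpx5 at 12.74 among them, and C4bp is the row that is bright in liver too.

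The promoters of 4 of these genes are shown because each leads a different family, Gpx5, Rnase9, the beta-defensin Defb23 and the lipocalin Lcn9, and because the genes were high together in 1 array. They are RefSeq windows of the GRCm38.p6 assembly, 250 bases before to 50 after the start of the gene, written 5′ to 3′ in the direction of transcription. The Gpx5 window is chr13:21292637-21292936 on the minus strand, that of Rnase9 chr14:51041818-51042117 on the minus strand, that of Defb23 chr2:152464571-152464870 on the minus strand and that of Lcn9 chr2:25822903-25823202 on the plus strand. Capitals mark AGAACA, the hexamer that the androgen receptor and related steroid receptors bind, and TATAAA, each on either strand.
Gpx5: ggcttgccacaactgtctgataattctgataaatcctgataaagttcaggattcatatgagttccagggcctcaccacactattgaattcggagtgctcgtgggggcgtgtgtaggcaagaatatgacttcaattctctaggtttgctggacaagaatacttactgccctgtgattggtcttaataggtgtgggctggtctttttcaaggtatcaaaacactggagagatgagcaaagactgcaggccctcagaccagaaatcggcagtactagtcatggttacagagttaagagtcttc
Rnase9: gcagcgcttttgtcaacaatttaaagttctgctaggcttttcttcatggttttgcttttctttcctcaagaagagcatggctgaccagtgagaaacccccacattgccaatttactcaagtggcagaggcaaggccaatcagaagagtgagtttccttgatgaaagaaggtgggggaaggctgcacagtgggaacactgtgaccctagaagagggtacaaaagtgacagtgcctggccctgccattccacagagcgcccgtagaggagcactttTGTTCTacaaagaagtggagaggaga
Defb23: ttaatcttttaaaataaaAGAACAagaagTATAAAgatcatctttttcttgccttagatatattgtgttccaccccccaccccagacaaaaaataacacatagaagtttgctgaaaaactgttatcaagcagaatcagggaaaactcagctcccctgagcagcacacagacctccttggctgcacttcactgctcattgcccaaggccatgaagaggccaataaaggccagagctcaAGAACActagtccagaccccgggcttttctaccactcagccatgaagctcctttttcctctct
Lcn9: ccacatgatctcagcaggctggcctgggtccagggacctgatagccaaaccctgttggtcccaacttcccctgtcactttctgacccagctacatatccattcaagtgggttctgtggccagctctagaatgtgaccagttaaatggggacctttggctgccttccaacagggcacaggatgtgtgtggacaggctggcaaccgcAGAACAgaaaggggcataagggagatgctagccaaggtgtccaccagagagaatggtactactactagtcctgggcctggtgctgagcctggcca
The Defb23 window held 2 AGAACA and 1 TATAAA, the Rnase9 and Lcn9 windows held 1 AGAACA each and no TATAAA, and the Gpx5 window held neither. The 2 motifs did not overlap in these windows. A window was listed for 172 of the 225 genes and for 16918 of all genes, and the first was used where a gene had several. AGAACA or its reverse complement TGTTCT lay in 28.5% of the 172 windows and in 16.7% of all windows. TATAAA, with its reverse complement TTTATA, lay in 11% and in 12.9%. AGGAAG or CTTCCT, a form of the site of ETS factors, lay in 39% and in 33.7%. The full steroid response element, AGAACA and its reverse complement with 3 bases of any kind between them, which overlaps the hexamer at both ends, lay in 0 of the 172 windows and in 1 of all of them. The windows of the 225 genes were poorer in CG dinucleotides, with a median of 5 against 13 over all windows, and their median GC content was 52.8% against 56.3%. These are descriptions of letters in a window, with no test, and neighbouring genes of a family can share sequence.

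Families of secreted and defence proteins held 84 of the 225 genes, 43 of the 58 genes with a gap over 5 and 23 of the 30 widest gaps among named genes. The families were chosen with earlier results of these data known, and the share of all genes in them is not given here. These counts are therefore a description only. Beta-defensins, small cationic peptides that kill microbes and in the duct also coat sperm, were the largest group, with 26 of the 43 measured and gaps from 2.01 to 7.99. Defb23 stood at 12.04 in Mgl2-DTR replicate 2, against 3.90 in Mgl2-DTR replicate 1 and 4.03 and 4.05 in the wild-type arrays. Defb39 stood at 10.77 in Mgl2-DTR replicate 2, against 2.82 in Mgl2-DTR replicate 1 and 2.90 and 2.75 in the wild-type arrays. Defb42, Defb12, Defb20 and Defb48 followed with gaps from 7.21 to 7.37, and Spag11a and Spag11b, which encode defensin-like sperm-binding proteins, had gaps of 5.60 and 5.31. Not all beta-defensins were high in that array: of the 17 that are not among the 225 genes, 15 stood at or under 5.71, the median of all single-symbol values, in Mgl2-DTR replicate 2 as well. Of the 17, Defb43 came closest with a gap of 1.85. Defb1, a beta-defensin of kidney and other epithelia, lay at the threshold with 5.71 in Mgl2-DTR replicate 2, against 3.70 in Mgl2-DTR replicate 1 and 3.64 and 3.52 in the wild-type arrays.

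Lipocalins, barrel-shaped carriers of small lipids, gave 8 of 15 measured genes. Lcn9 stood at 12.16 in Mgl2-DTR replicate 2, against 4.24 in Mgl2-DTR replicate 1 and 4.23 and 4.37 in the wild-type arrays. Lcn5, the retinoic acid carrier of the duct, stood at 11.83 in Mgl2-DTR replicate 2, against 4.76 in Mgl2-DTR replicate 1 and 4.71 and 4.79 in the wild-type arrays. Lcn8, Lcn12 and Lcn10 had gaps of 6.95, 6.29 and 5.61, and Obp2a and Lcn6 had narrower ones of 4.08 and 3.28. Ptgds, the prostaglandin D synthase of lipocalin fold, stood at 10.44 in Mgl2-DTR replicate 2, against 6.02 in Mgl2-DTR replicate 1 and 5.39 and 5.82 in the wild-type arrays. Lcn2, an acute-phase lipocalin of neutrophils, epithelia and fat that is not among the 225 genes, stood at 11.40 in Mgl2-DTR replicate 2, against 9.74 in Mgl2-DTR replicate 1 and 8.61 and 9.52 in the wild-type arrays.

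Protease inhibitors formed the next set. Inhibitors with WAP or Kunitz domains gave 14 of 27 measured genes with gaps from 2.26 to 8.06, and Kazal-type inhibitors gave 7 of 12 with gaps from 2.02 to 8.62. Eppin, a sperm-coating inhibitor with domains of both the WAP and the Kunitz kind, stood at 9.92 in Mgl2-DTR replicate 2, against 4.08 in Mgl2-DTR replicate 1 and 4.50 and 4.37 in the wild-type arrays. Spink8 stood at 12.04 in Mgl2-DTR replicate 2, against 3.88 in Mgl2-DTR replicate 1 and 4.22 and 4.04 in the wild-type arrays. In both genes the other 3 arrays lay close together, far under that level. Spint1 and Spint2, membrane inhibitors of epithelial surface proteases, had gaps of 2.26 and 2.36, and the surface proteases Prss8 and St14 had gaps of 2.05 and 2.84. Cystatins, inhibitors of cysteine proteases, gave 3 of 24, led by Cst11 with a gap of 7.03, while Cst3, the cystatin of nearly all cells, stood at 10.42 in Mgl2-DTR replicate 2, against 10.48 in Mgl2-DTR replicate 1 and 10.76 and 10.56 in the wild-type arrays. Serpins gave 3 of 53, namely Serpina1f with a gap of 7.30, Serpina16 with 4.25 and Serpinf2, the liver's plasmin inhibitor, with 2.64.

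Sperm-surface and enzyme families were split in the same manner, with a few duct members far up and the widely used ones level. Besides Gpx5, Gpx6 had a gap of 4.05, while Gpx1, Gpx3, Gpx4 and Gpx8 had gaps between -0.38 and 0.21. Those last genes stood over 5.71 in every epididymal array. Of the ribonuclease A family 4 of 15 were found, with Rnase13, Rnase12 and Rnase10 at gaps of 6.12, 4.60 and 3.90 beside Rnase9. Of the ADAM proteins 2 of 33 were found, Adam7 and Adam28, the second with a gap of 5.77. Crisp4, a cysteine-rich secretory protein of the duct that binds sperm, was the only one of 5 measured CRISP-type genes, at 9.73 in Mgl2-DTR replicate 2, against 3.04 in Mgl2-DTR replicate 1 and 3.46 and 3.10 in the wild-type arrays. Small proteins of the Ly6, Lypd and Pate group gave 11 of 42. Lypd8, known in the mouse colon for binding flagellated bacteria, led them with 12.06 in Mgl2-DTR replicate 2, against 4.47 in Mgl2-DTR replicate 1 and 4.22 and 4.38 in the wild-type arrays, and Pate5, Pate6 and Ly6g5c had gaps of 7.49, 7.44 and 6.78. The mucins Muc15, a membrane mucin, and Muc5b, the gel-forming mucin of the airway, had gaps of 7.41 and 5.15, out of 15 mucin and trefoil genes.

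Outside these families, and with predicted genes skipped, the widest gaps belonged to Ces5a, a secreted carboxylesterase, with 6.94, to the transmembrane epididymal protein gene Teddm2 with 6.68, to C4bp, a plasma inhibitor of complement, with 6.60, and to Ovch2, a serine protease of the duct that sperm need for fertility in mice, with 6.57. Clpsl2, a colipase-like gene, Epp13, named for an epididymal protein, and Slc38a5, a transporter of neutral amino acids, followed with 6.44, 6.43 and 6.32. Ros1, the receptor tyrosine kinase without which the first segment of the mouse duct does not form, stood at 8.30 in Mgl2-DTR replicate 2, against 3.61 in Mgl2-DTR replicate 1 and 3.64 and 3.52 in the wild-type arrays.

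**Figure D2:**
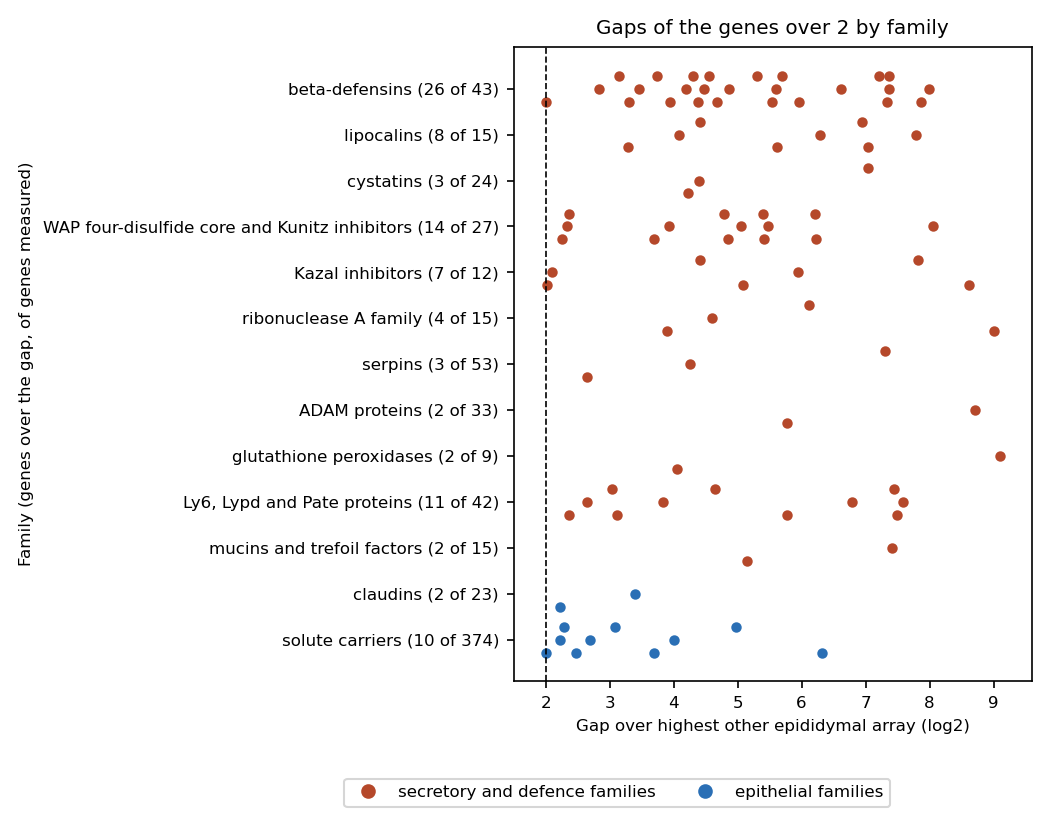
Gap of each gene (x axis, log2) by family (rows, with the number of genes over the gap among those measured) for the families with 2 or more such genes, and the dashed line marks the threshold of 2. Secreted and defence families (red) reach 9.10, and claudins and solute carriers (blue) reach 6.32.

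Epithelial identity genes were also higher, by less. Among the 4 epididymal arrays all 19 measured genes of the list were highest in Mgl2-DTR replicate 2, 13 of them with a gap over 2, and the mean level of the list was 7.79 in Mgl2-DTR replicate 2, against 5.68 in Mgl2-DTR replicate 1 and 5.30 and 5.65 in the wild-type arrays. Epcam, an adhesion protein of simple epithelia, stood at 8.53 in Mgl2-DTR replicate 2, against 5.62 in Mgl2-DTR replicate 1 and 4.54 and 4.81 in the wild-type arrays. Cldn8, a tight junction claudin, stood at 7.51 in Mgl2-DTR replicate 2, against 3.64 in Mgl2-DTR replicate 1 and 3.83 and 4.10 in the wild-type arrays. The adhesion gene Cdh1, the keratin gene Krt18 and the epithelial splicing and transcription factors Esrp1, Esrp2, Grhl2 and Elf3 had gaps from 2.002 to 2.59. Krt8 and Krt19, which like Krt18 are expressed by mesothelium on the fat pad too, did not reach the threshold, with gaps of 0.82 and 0.72. Nor did Cldn7, Cldn4, Krt7 and Ovol2, with gaps of 1.73, 1.51, 0.04 and 0.04. Ovol2 stood at 5.11 in Mgl2-DTR replicate 2, under 5.71. Krt8 stood at 8.22 in Mgl2-DTR replicate 2, against 7.35 in Mgl2-DTR replicate 1 and 6.78 and 7.40 in the wild-type arrays, over 5.71 in all 4 arrays.

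Transport genes and genes of single duct cell types gave fewer members of the set. Rhcg, an ammonia channel of acid-secreting clear cells, stood at 10.03 in Mgl2-DTR replicate 2, against 4.85 in Mgl2-DTR replicate 1 and 4.65 and 4.56 in the wild-type arrays. Foxi1, the transcription factor of those cells, and Atp6v1g3, a subunit of their proton pump, had gaps of 2.71 and 2.80. The other 7 clear-cell genes had gaps under 2, among them Atp6v1b1 with 0.59, Foxi2 with 0.00 and Atp6v0d2 with -2.36. No gene of 15 for ion and water transport in ducts passed the rule, and their median gap was 0.11. The widest gap was that of Car12, a membrane carbonic anhydrase, with 1.961. Aqp9, Cftr and Scnn1a, a water channel, a chloride channel and a sodium channel subunit, had gaps of 1.34, 1.32 and 1.20, and Slc9a3 was lowest with -0.72. Among 374 solute carriers by symbol 10 passed the rule (2.67%, against 1.01% of all genes). Slc38a5, the carrier of neutral amino acids, and Slc35f2 led with gaps of 6.32 and 4.98, and Slco4c1 and Slc1a1, carriers of organic anions and glutamate, followed with 4.01 and 3.70. Markers of basal cells gave 0 of 7 genes, with Trp63 at a gap of 0.99.

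Of 17 measured regulators of hormone response and duct patterning, 3 passed. Pax2 and Pax8, factors of the embryonic duct from which the epididymis forms, had gaps of 2.49 and 2.48, and Emx2, a homeobox factor of the same tract, had 2.17. Pax2 stood at 6.38 in Mgl2-DTR replicate 2, against 3.89 in Mgl2-DTR replicate 1 and 3.37 and 3.58 in the wild-type arrays. No Rhox gene of 10 passed, and of 36 Hox genes Hoxb8 alone did, with a gap of 2.71. The androgen receptor gene had no probe of a single symbol and was not analysed here.

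Part of the set consisted of neighbouring genes. In the order of protein-coding genes of RefSeq's GRCm38.p6, 69 of the 216 genes found there (31.9%) lay in 20 unbroken runs. Of these runs 8 held 3 or more genes, 45 in all. No such count was made for other sets of genes, so the share is a description only. The longest run had 11 genes, Wfdc6a, Eppin, Wfdc8, Wfdc6b, Wfdc16, Wfdc9, Wfdc10, Wfdc11, Wfdc13, Spint4 and Spint5, with gaps from 2.34 to 8.06, and the genes on both sides, Spint3 and Wfdc3, had gaps of 0.54 and 0.16. A run of 8 beta-defensins, Defb23, Defb20, Defb22, Defb26, Defb28, Defb29, Defb21 and Defb19, had gaps from 2.84 to 7.99 and stopped at Defb45 with 1.14. The run of 7 Pate genes, from Pate2 to Pate5, had gaps from 2.36 to 7.49. The lipocalin run Lcn8, Lcn5, Lcn6, Lcn10 and Obp2a had gaps from 3.28 to 7.04, and its measured neighbour Bmyc had 1.58. These runs joined genes with wide and with narrow gaps, and over the 6 longest runs no level in the other 11 arrays exceeded 6.48, apart from Obp2a and Defb35 in liver. Probes of near-identical family members can share signal, which the deposited values do not resolve.

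**Figure D3:**
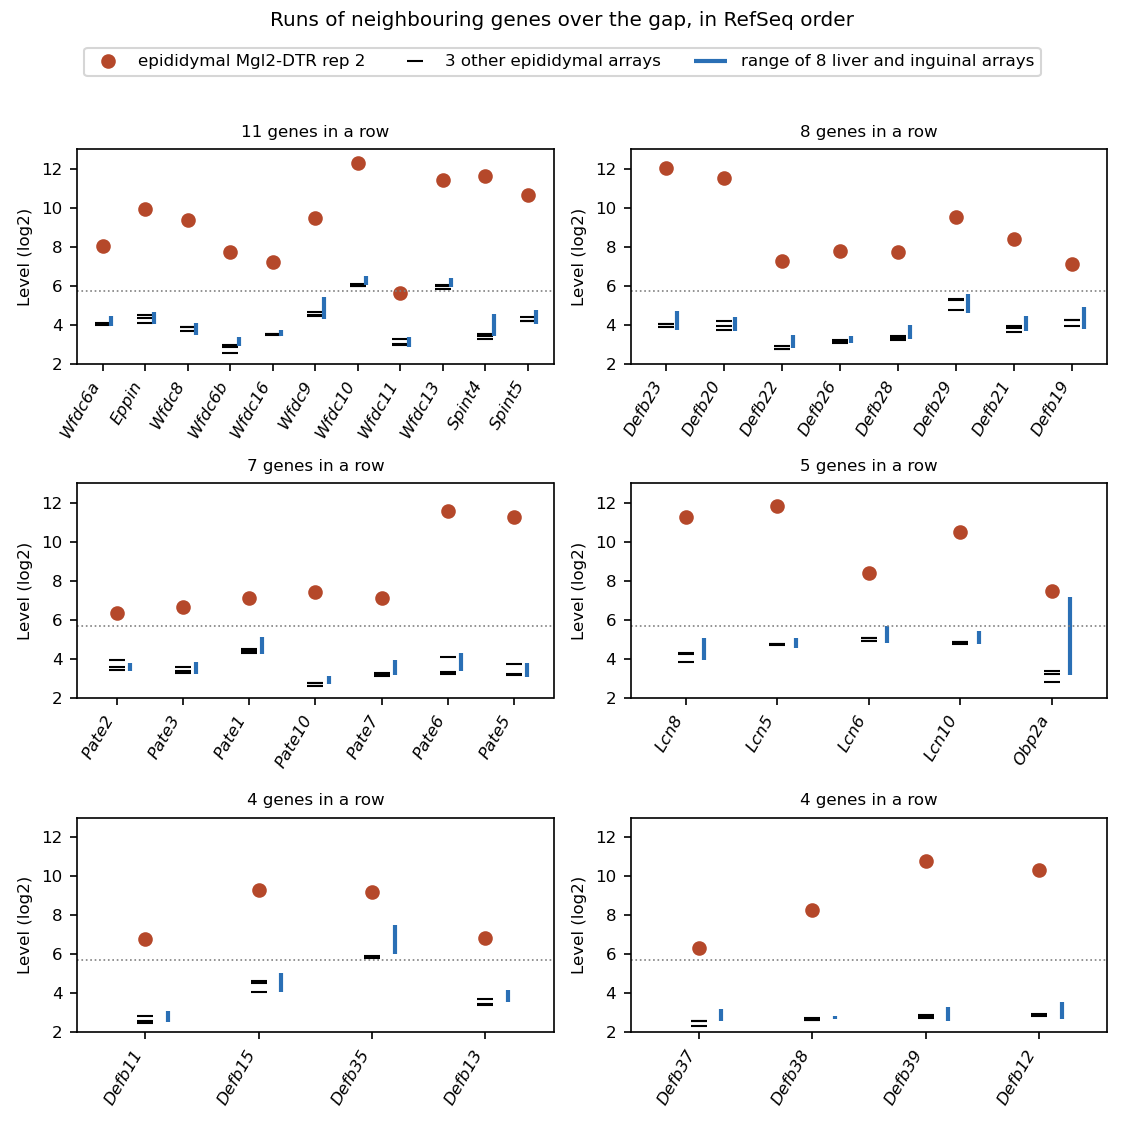
Log2 level of each gene (x axis, in RefSeq order) in epididymal Mgl2-DTR replicate 2 (red points), in the other 3 epididymal arrays (black dashes) and over the 8 liver and inguinal arrays (blue bars, lowest to highest), for the 6 longest runs, and the dotted line is the level of 5.71. Of the 11 genes of the longest run, Wfdc11 with 5.63 is the one whose level in Mgl2-DTR replicate 2 lies under that line.

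The label of the set was checked against 18 lists of marker genes, all of them chosen with these results known. Of 30 epididymal duct markers 26 were measured and 26 were among the 225 genes, with a mean level of 10.28 in Mgl2-DTR replicate 2, against 3.98 in Mgl2-DTR replicate 1 and 3.94 in each wild-type array. Their means were 4.24 to 4.41 in the liver arrays and 4.04 to 4.21 in the inguinal arrays. The set and this list overlap by choice, so the count is no independent support for the name. Markers of other organs of the tract gave few genes of the set. Among 15 markers of testis germ cells, Smcp, a sperm mitochondrial protein gene, was the only one in the set, and 11 of the 15 stood at or under 5.71 in Mgl2-DTR replicate 2. Among the 4 epididymal arrays, 11 of the 15 were highest in Mgl2-DTR replicate 2. The mean of this list was 5.68 there, against 5.05 in Mgl2-DTR replicate 1 and 4.87 and 5.26 in the wild-type arrays. Cyp17a1, a steroid hydroxylase of Leydig cells, was the only one of 10 Leydig and Sertoli markers, at a gap of 2.002.

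Markers of vas deferens, seminal vesicle and prostate were low in Mgl2-DTR replicate 2, where all 14 measured stood at or under 5.71. In wild-type replicate 2, 8 of the 14 stood over 5.71, the Svs genes of the seminal vesicle and Spink1, and the other 6, Pbsn among them, did not. The list's mean was 3.46 in Mgl2-DTR replicate 2, against 3.38 in Mgl2-DTR replicate 1 and 3.52 and 7.06 in wild-type replicates 1 and 2. Svs5, a seminal vesicle secretory protein, stood at 3.70 in Mgl2-DTR replicate 2, against 3.34 in Mgl2-DTR replicate 1 and 3.91 and 12.19 in wild-type replicates 1 and 2. The genes of the duct and those of the seminal vesicle were therefore each high in 1 array, and not in the same one. Markers of kidney tubule, pancreas and intestine gave 0 genes of 11, 8 and 10 in the set, and those of skeletal muscle, adipocytes, macrophages and hepatocytes gave 0 of 13, 14, 15 and 15. Adipocyte genes averaged 11.63 in Mgl2-DTR replicate 2, against 11.96 in Mgl2-DTR replicate 1 and 11.51 and 11.91 in the wild-type arrays. Smooth muscle surrounds the duct, and 2 of its 10 markers were in the set, Actg2 with a gap of 4.48 and Cnn1 with 2.03. Acta2 and Myh11, which vessels of fat express too, had gaps of 0.40 and 0.39. Of 11 mesothelial genes Krt18 was the only one in the set, and 4 were highest in Mgl2-DTR replicate 2.

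**Figure D4:**
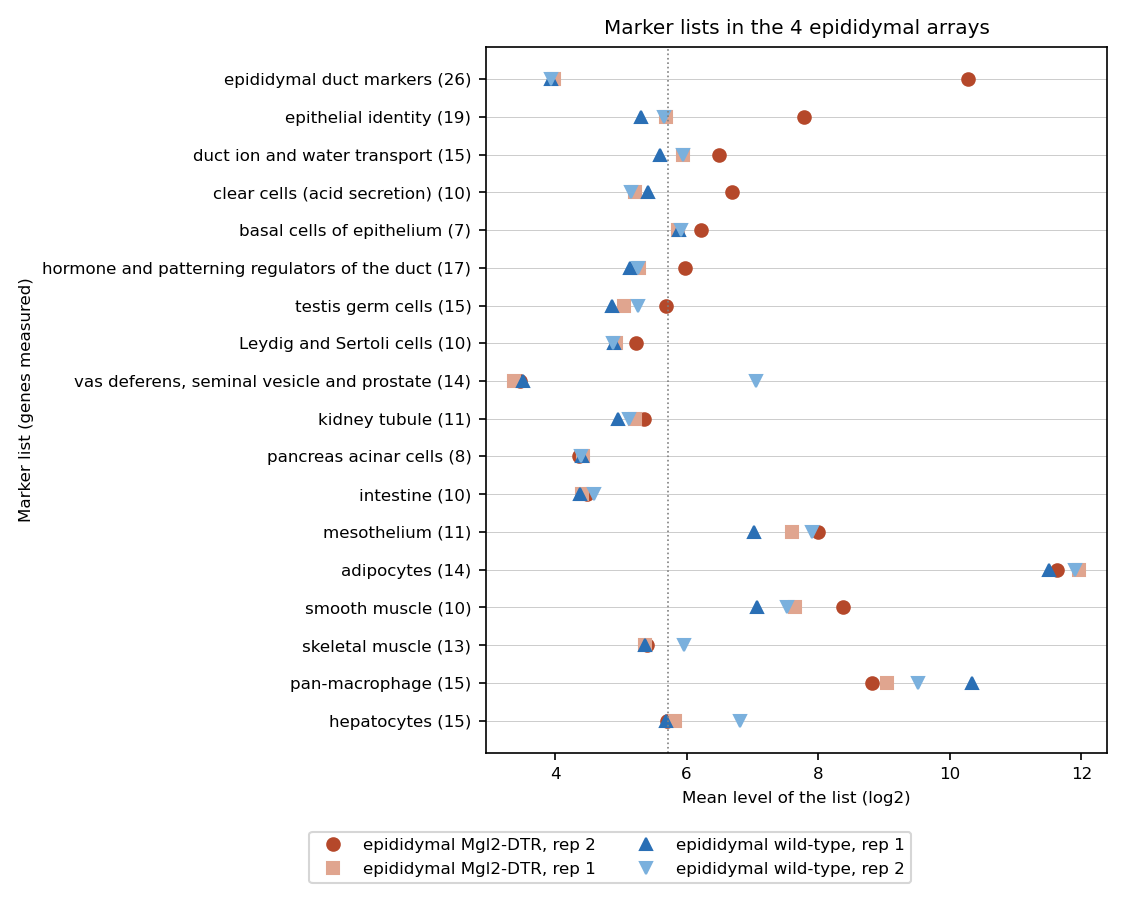
Mean log2 level (x axis) of each marker list (rows, with the genes measured) in the 4 epididymal arrays, Mgl2-DTR in red tones and wild-type in blue tones, and the dotted line is the level of 5.71. Epididymal duct markers stand at 10.28 in Mgl2-DTR replicate 2 and under 4 in the other 3 arrays, and the markers of vas deferens, seminal vesicle and prostate stand at 7.06 in wild-type replicate 2.

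Some genes of the set were not at the lowest levels in the other fat pads. In at least 1 of the other 3 epididymal arrays, 11 of the 225 genes exceeded the highest inguinal array by more than 1, namely 8 in Mgl2-DTR replicate 1, 2 in wild-type replicate 1 and 7 in wild-type replicate 2. That is 4.89% of the set, close to the 3.63% of all genes. By array, Mgl2-DTR replicate 1 held 3.56% of the set and 0.789% of all genes, wild-type replicate 1 held 0.889% and 2.88%, and wild-type replicate 2 held 3.11% and 0.735%, with no test. Cuzd1, which encodes a protein with CUB and zona pellucida-like domains, stood at 11.42 in Mgl2-DTR replicate 2, against 6.89 in Mgl2-DTR replicate 1 and 5.16 and 7.02 in the wild-type arrays, and the highest inguinal level was 4.36. Smcp stood at 8.13 in Mgl2-DTR replicate 2, against 4.83 in Mgl2-DTR replicate 1 and 3.29 and 5.63 in the wild-type arrays. Pax8, Prom1, B4galnt2, Rmst and Gstm7 likewise had wild-type replicate 1 as the lowest array, and these 7 genes were named after their values were seen. Of the other 3 arrays the lowest was Mgl2-DTR replicate 1 for 64 of the 225 genes, and wild-type replicates 1 and 2 for 110 and 51. Macrophage genes averaged 8.81 and 9.04 in Mgl2-DTR replicates 2 and 1, against 10.33 and 9.52 in wild-type replicates 1 and 2, and their part in this order was not tested.

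Outside the epididymal fat pad most of the set was dim. In the 8 liver and inguinal arrays the median level of the 225 genes was 4.37 to 4.52 in liver and 4.24 to 4.36 in inguinal fat. Of the 225 genes, 160 (71.1%) stood at or under 5.71 in all 11 arrays other than Mgl2-DTR replicate 2, against 38.9% of all genes. The mean over the liver arrays exceeded 5.71 for 42 genes (18.7%, against 50.4% of all genes), and the mean over the inguinal arrays did so for 30 (13.3%, against 51.5%). The rule favours genes that are dim in fat, and no detection call was among the values used here, so levels of this size cannot be told from background. In 13 genes (5.78%, against 57% of all genes) the liver mean lay above the level in Mgl2-DTR replicate 2. The rule chose genes high in that array, so a low share here follows from the rule and says nothing of liver.

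The liver and inguinal arrays were not used by the rule, and limma was fitted to those 8 arrays over all 22180 genes, with p-values adjusted over all of them and an adjusted p under 0.05 as the call. Whether replicates are separate animals is not said beyond each description's mention of a mouse, and the p-values cover the spread between these arrays only. Liver against inguinal fat, averaged over both genotypes, called 67 of the 225 genes (29.8%), where the share of all genes called was 41.2%. Higher in liver were 55 genes (24.4%, against 17.4% of all genes), and lower in liver were 12 (5.33%, against 23.8%). The median difference was 0.14 over the 225 genes and 0.02 over all genes. Of the 55 genes, 23 had a liver mean at or under 5.71, which is 10.2% of the 225 genes, against 4.59% of all genes.

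The widest differences were those of genes that liver is known to express. C4bp stood at 11.13, 11.59, 11.57 and 11.06 in the liver arrays, against 4.11, 3.94, 3.76 and 4.05 in the inguinal arrays, a difference of 7.37 (SE 0.157, limma adjusted p = 1.48e-09). Serpinf2 stood at 11.44, 11.67, 11.44 and 11.20 in liver, against 4.61, 4.56, 4.10 and 4.07 in inguinal fat, a difference of 7.10 (SE 0.104, limma adjusted p = 3.73e-10). Elovl2, which lengthens polyunsaturated fatty acids, stood between 11.56 and 11.99 in liver, against 5.43 to 5.86 in inguinal fat, a difference of 6.22 (SE 0.13, limma adjusted p = 1.39e-09). In these genes no liver array came near an inguinal one. Mfsd2a, a lysolipid transporter, Cyp17a1, the splicing factor gene Esrp2, Tmem30b, a flippase subunit, Gldc, of glycine breakdown, Erbb3, a growth factor receptor, and Gfra1, a receptor for glial-derived neurotrophic factor, followed with differences from 3.68 to 5.01. The epithelial genes Krt18 and Cldn3 were higher in liver by 3.67 (SE 0.13) and 3.45 (SE 0.105), so part of the epithelial group was high in liver too. Of the secretory families Gpx5, Rnase9, Defb23 and Lcn9 stood under 5.71 in each of the 8 arrays. The liver means of Defb35, Wfdc10, Obp2a and Lcn12 were 7.24, 6.31, 6.25 and 6.24, against inguinal means of 6.21, 6.11, 3.39 and 5.67. The difference was called for Defb35, Obp2a and Lcn12, but not for Wfdc10.

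**Figure D5:**
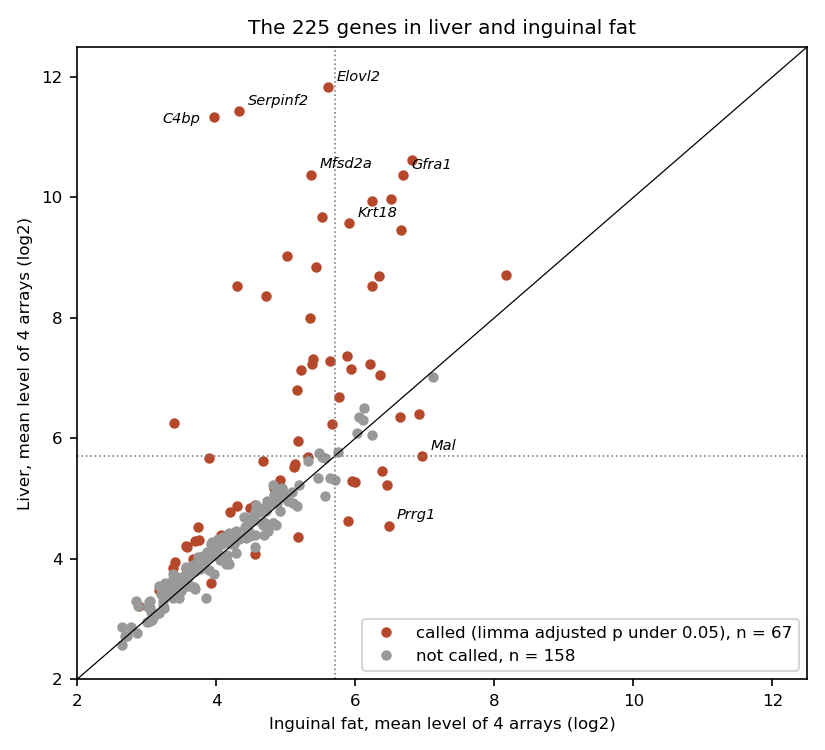
Mean log2 level of each of the 225 genes over 4 liver arrays (y axis) and 4 inguinal arrays (x axis), red where limma called the difference (n = 67) and grey where it did not (n = 158), with the line of equal levels and dotted lines at 5.71. Most genes crowd in the lower left corner near the line, and C4bp, Serpinf2 and Elovl2 lie at the top left.

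Of the 12 genes lower in liver, Prrg1, a membrane protein gene with a Gla domain, had the widest difference. It stood at 4.71, 4.62, 4.75 and 4.11 in liver, against 6.92, 6.30, 6.22 and 6.48 in inguinal fat, a difference of -1.93 (SE 0.181, limma adjusted p = 2.81e-05). Emx2 and Mal, a protein of apical membranes and myelin, differed by -1.27 (SE 0.148) and -1.26 (SE 0.148), and Ap1s2 and Slc1a1 by -1.21 (SE 0.17) and -0.95 (SE 0.117). No separate count is given without the inguinal arrays high in muscle genes, since that fit holds no spread within the inguinal groups. With all 12 arrays in the fit, which adds the spread between the epididymal arrays that chose the genes, 27 were called, and with dim genes left out 36 of the 42 that were still tested.

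Neither tissue showed a change with genotype among the 225 genes that passed the adjustment. In inguinal fat the Mgl2-DTR arrays differed from wild-type in 0 of the 225 genes with limma, where the share of all genes called was 0.216%, and 29 of the 225 (12.9%) had an unadjusted p under 0.05, against 8.67% of all genes. Gfra1 came closest, at 7.39 and 7.21 in Mgl2-DTR inguinal fat, against 5.91 and 6.27 in wild-type inguinal fat, a difference of 1.21 (SE 0.201, limma adjusted p = 0.078). Its groups did not overlap, and with the trended, robust variance of limma it was called (adjusted p = 0.0249). Dsp, the desmoplakin of epithelial junctions, stood at 4.89 and 4.59 in Mgl2-DTR inguinal fat, against 4.28 and 8.02 in wild-type inguinal fat, so that 1 wild-type array set its mean. That array, wild-type replicate 2, is among the inguinal arrays high in muscle genes. Without inguinal wild-type replicate 1, which leaves that high array alone in its group and assumes that it varies like the others, Dsp was called with a difference of -3.28 (limma adjusted p = 0.000191). Leaving out the arrays high in muscle genes leaves 1 inguinal array per genotype, with no spread to measure, so no separate count is given.

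In liver 0 of the 225 genes were called with limma, where the share of all genes called was 0.0225%, and 23 (10.2%) had an unadjusted p under 0.05, against 7.4% of all genes. Obp2a, an odorant-binding lipocalin, came closest, at 5.81 and 5.08 in Mgl2-DTR liver, against 6.95 and 7.16 in wild-type liver, a difference of -1.61 (SE 0.245, limma adjusted p = 0.126). The liver change differed from the inguinal change in 0 of the 225 genes, where the share of all genes called was 0.225%, and 27 (12%) had an unadjusted p under 0.05, against 9.41% of all genes, with Obp2a closest (limma adjusted p = 0.208). For the same reason as in inguinal fat, no separate count is given for it without the arrays high in muscle genes. Without inguinal wild-type replicate 1 Dsp was called in this comparison as well (3.21, limma adjusted p = 0.00181). With 2 arrays per group these tests miss small changes, and a p above the threshold does not show that levels were alike.

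The threshold divides a continuous range of gaps. Fam169a, Slc17a9, Erbb3, Cyp17a1 and Krt18 lay just inside it with gaps of 2.011, 2.008, 2.007, 2.002 and 2.002, and Ap1m2, Rasef, Asb11, Slc28a3 and Car12 lay just outside with 1.998, 1.991, 1.979, 1.975 and 1.961. In Mgl2-DTR replicate 2, 216 of the 225 genes stood over 5.71. A further single-symbol probe was present for 7 genes, Alpl, Cdh1, Gfra1, Krt18, Rmst, Slc7a11 and Tmc4. In all 7 the further probe was also highest in Mgl2-DTR replicate 2, with gaps of 0.04 to 0.98, and 5 of the 7 stood at or under 5.71 there. For Cdh1 the brighter probe had a gap of 2.20 and the other one 0.04, and for Gfra1 they had 3.89 and 0.29, so the size of the gap differed between probes of a gene.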

How the data were processed

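RNA of 12 samples was measured on an Affymetrix mouse gene array after labelling with the GeneChip WT PLUS kit, per the labels' protocols. The values deposited by the authors are log2 levels, normalized between arrays, with column medians of 5.19 to 5.28. The submitters' processing notes name limma, and how background was corrected and values were normalized and summarized is not stated in the sources used here. The number of arrays, 2 per group, limits the precision.

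Of 41345 probes, 23521 carry 1 symbol in the platform annotation, 1814 several and 16010 none that is listed. The brightest single-symbol probe over the 12 arrays stood for each of 22180 genes, and 0 columns were left unmapped. The 225 genes were found by the gap of 2, and the level 5.71, the median of single-symbol values, served to call a level dim. The genes, the families and the lists were chosen with earlier results of these data known.

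Tests used limma 3.58.1 in R 4.3.3 on the 8 liver and inguinal arrays, with 1 mean per group, no filter on dim genes, eBayes without trend, 4 residual and 4.69 prior degrees of freedom, two-sided p-values and Benjamini-Hochberg adjustment over 22180 genes. Calls were made at an adjusted p under 0.05. The fit was tested on simulated data. Alternatives were other gaps, probes and normalizations, a filter on dim genes, a trended robust variance, all 12 arrays, 1 tissue alone, replicate blocks and leaving out each array. Leaving out the muscle-bearing inguinal arrays in the liver change and in both liver and inguinal comparisons was added after the data were seen.

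The genes named are the 30 widest gaps, skipping predicted genes, up to 6 of each family and list with up to 4 genes of a list outside the set, the 5 on each side of the threshold, up to 10 called genes per direction, those with further probes, and Mgl2. The genes raised in another epididymal array and the neighbours of runs were named after their values were seen. Symbols were looked up by Entrez gene in RefSeq (GRCm38.p6), where 224 of the 225 genes and 21994 of all genes matched and 0 symbols differed.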

Additional observations from a re-analysis of the deposited data

Results flagged for a closer look

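Probes outside the analysis also held the signal. Of the 1814 probes with several symbols, 5 exceeded the other 3 epididymal arrays by more than 2 in epididymal Mgl2-DTR replicate 2, against 0 in Mgl2-DTR replicate 1 and 0 and 1 in wild-type replicates 1 and 2. The widest gap among them was 6.28, for a probe annotated to Defb41 or Gm15386, which stood at 9.31 in Mgl2-DTR replicate 2, against 2.57 in Mgl2-DTR replicate 1 and 3.04 and 2.72 in the wild-type arrays. Of the 16010 probes with no listed symbol, 26 passed the same rule in Mgl2-DTR replicate 2, against 4 in Mgl2-DTR replicate 1 and 6 and 15 in wild-type replicates 1 and 2, and they are not named here.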

How the results depend on the processing

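The set held 225 genes at a gap of 2, 126 at a gap over 3 and 300 at a gap over 1.5, and 231 to 232 when 1 of the other epididymal arrays was left out. In inguinal fat the count of the 225 genes called was 0, and 1 (Gfra1) with a trended robust variance and 1 at an adjusted p under 0.10, with 0 to 1 when single arrays were left out. The count for liver against inguinal fat was 67, but 27 with all 12 arrays, where the median standard error was 0.586 and not 0.126, and 36 with dim genes left out, and leaving out single arrays gave 56 to 67. The difference between the liver and inguinal changes gave 0 to 1 when single arrays were left out, and the liver change gave 0 under every alternative that was run. With the replicate block the counts were 0 in inguinal fat, 0 in liver, 64 between tissues and 0 for the difference of changes, and with genotype and number as the block 65 and 0. The labels do not say whether arrays of 1 number share an animal, and the deviations of such arrays correlated at -0.109 to 0.138. For liver against inguinal fat, 20 genes named for the widest called differences gave 354 values under these alternatives. Of these values, 0 turned sign and 18 kept their direction without being called. Genes so chosen would rarely turn sign, so this says little of the other genes and nothing of the genotype changes. Over all genes, liver against inguinal fat called 6961 to 10766 genes, the inguinal change 7 to 77, the liver change 3 to 15 and the difference of changes 14 to 74. Leaving out single arrays gave 7799 to 8471, 22 to 123 (48 with all arrays, 123 without inguinal wild-type replicate 1), 1 to 7 (5 with all) and 6 to 105 (50 with all). The ranges over alternatives and the 354 values include the fit without the 2 inguinal arrays high in muscle genes. That fit measures no spread within inguinal fat. Signal over background was not given in the sources used here, which limits the levels and gaps of dim genes.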
